A study of Mus musculus with 24 samples.

Results

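The unfolded protein response genes described here are 10 genes chosen by name: Hspa5, Hsp90b1, Ddit3, Atf4, Xbp1, Dnajb9, Herpud1, Sdf2l1, Pdia4 and Manf. All 10 were found among the 30153 gene identifiers of the deposited expression table. The study sequenced polyadenylated RNA of 24 mice of strain C57/BL6, labelled as kidney, with 4 animals in each of 6 groups. The haplotype mice carry the human angiotensin receptor type 1, a receptor whose overexpression accompanies hypertension in the series title, as haplotype I (Hap-I) or haplotype II (Hap-II); its promoter, its founder lines and the length of the diet are not stated in the labels. On western diet there were adult Hap-I, aged Hap-I and adult Hap-II mice. The labels of the other 3 groups name no diet: adult Hap-I, aged Hap-I, and adult C57 mice, the only group without a named human haplotype. Neither sex nor the ages in months are labelled.

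Proteins that are secreted or embedded in membranes fold in the endoplasmic reticulum (ER). When unfolded protein accumulates there, the sensors IRE1, PERK and ATF6 start the unfolded protein response: IRE1 splices Xbp1 mRNA into the form that codes for an active transcription factor, PERK slows translation while favouring that of Atf4, and ATF6 is cleaved into a transcription factor. The targets are chaperones and folding enzymes, the degradation machinery of the ER and, under lasting stress, the factor CHOP (gene Ddit3), which is linked to cell death. In the kidney the proximal tubule, rich in ER and in protein uptake, is a known site of this response. Hspa5 codes for BiP, the ER's main HSP70 chaperone, which also holds the sensors inactive, and Hsp90b1 for GRP94, its HSP90. Pdia4 is a protein disulfide isomerase, Dnajb9 (ERdj4) and Sdf2l1 are partners of BiP, Herpud1 serves ER-associated degradation and Manf is a secreted, ER-resident protective factor.

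Promoter sequence is shown because chaperone genes of this family share the ER stress response element (ERSE), to which ATF6 and XBP1 are known to bind. As the element is already known from such genes, the counts below are a description and no independent support. Hspa5, Hsp90b1 and Pdia4 moved together in the kidneys, and whether these motifs have a part in that was not tested. RefSeq promoter windows of assembly GRCm38.p6, from 250 bases before to 50 bases after the annotated start, were matched for 9 of the 10 genes by symbol; Manf had none. On either strand, the ERSE, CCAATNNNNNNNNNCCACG, was found in 39 of 32851 windows of all genes (0.119%) and in 2 of the 9. The shorter ERSE-II, ATTGG and CCACG with 1 free base between them, was in 0.0365% of all windows and in Herpud1 alone of the 9. Capitals mark the fixed bases of the motif that match; in Pdia4, 1 of the 10 fixed bases differs, a form found in 1.4% of windows and in 4 of the 9. Each line is the gene's strand, 5′ to 3′.
Hspa5, chr2:34772020-34772047, plus strand: cttcaCCAATcggaggcctCCACGacgg
Hsp90b1, chr10:86705510-86705664, minus strand: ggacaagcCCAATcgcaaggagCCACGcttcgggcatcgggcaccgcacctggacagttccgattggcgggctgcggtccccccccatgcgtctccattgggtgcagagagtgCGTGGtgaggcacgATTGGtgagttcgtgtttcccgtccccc
Pdia4, chr6:47813513-47813627, minus strand: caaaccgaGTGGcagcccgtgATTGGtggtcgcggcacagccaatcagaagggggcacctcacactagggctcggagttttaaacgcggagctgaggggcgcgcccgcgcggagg
Herpud1, chr8:94386319-94386428, plus strand: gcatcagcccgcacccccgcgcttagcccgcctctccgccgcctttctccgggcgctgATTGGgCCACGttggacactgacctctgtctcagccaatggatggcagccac
The Hspa5 element lies 65 to 47 bases before the RefSeq start, within the first exon (5′ UTR) of a longer transcript in GENCODE M21. Hsp90b1 holds a pair of elements, at 212 to 194 bases on the gene's strand and at 107 to 89 bases on the opposite strand. The Herpud1 element lies 52 to 42 bases before the start. The UPRE, TGACGTGG, was in none of the 9 windows and in 0.676% of all, and the core of the amino acid response element, TGATGNAA, in Herpud1 alone of the 9 and in 3.97% of all. The CCAAT and CCACG parts of these elements are common on their own, in 37.4% and 32.8% of all windows and in 8 and 7 of the 9.

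The values are transcripts per 1000000 (TPM), which correct for transcript length but keep no read depth, so counting error is unknown. The 16 libraries of the 3 western diet groups and of C57 held kidney transcripts: 8 proximal tubule markers summed to between 1680 and 5828 TPM on the diet and to between 5655 and 6800 TPM in C57. The 8 libraries of adult and aged Hap-I mice without a named diet went against their tissue label, with 7.19 to 26.3 TPM of the same markers. They had 6416 to 7958 TPM of 10 neuron markers, which summed to at most 17.0 TPM in the other 16. They also held 2112 to 2486 TPM of 6 astrocyte markers and 2725 to 5453 TPM of 6 oligodendrocyte markers. These 8 were fitted apart and are called the neuronal libraries for short, although their transcripts are of mixed neuronal and glial kind. Libraries on the diet also had 21.2% to 35.7% of their TPM in mitochondrially encoded genes against 12.4% to 16.9% in C57, and detected 15975 to 18395 genes against 17990 to 18449. Transcripts of 4 Y-linked genes summed to between 0.73 and 0.954 TPM in the 4 C57 libraries, to between 0.485 and 40.2 TPM on the diet and to between 35.4 and 70.4 TPM in the neuronal libraries. Fewer cells of a type and less RNA per cell cannot be told apart in such bulk tissue.

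In C57 kidney the 2 large chaperones led the levels. Hspa5 (ENSMUSG00000026864, chr2:34771970-34777547) was at 338, 367, 344 and 368 TPM in libraries 1 to 4. Hsp90b1 (ENSMUSG00000020048, chr10:86690209-86705509) was at 313, 399, 345 and 331 TPM, overlapping Hspa5. Herpud1 (ENSMUSG00000031770, chr8:94386438-94395377) followed at 125, 194, 205 and 377 TPM, the widest spread of the 10 in that group. Xbp1 (ENSMUSG00000020484, chr11:5520659-5525893) at 102, 94.5, 92.05 and 103 TPM stood above Manf (ENSMUSG00000032575, chr9:106838312-106891979) at 89.8, 79.4, 78.6 and 88.2 TPM, without overlap. Atf4 (ENSMUSG00000042406, chr15:80255184-80257541), the PERK arm's transcription factor, was at 76.6, 74.5, 68.6 and 75.7 TPM and overlapped Pdia4 (ENSMUSG00000025823, chr6:47796141-47813430) at 63.1, 76.8, 70.8 and 72.98 TPM. The last 3 members were low and overlapped in part: Ddit3 (ENSMUSG00000025408, chr10:127290774-127296288) at 28.5, 16.9, 25.3 and 38.8 TPM, Dnajb9 (ENSMUSG00000014905, chr12:44205559-44210326) at 12.5, 19.4, 16.4 and 16.1 TPM and Sdf2l1 (ENSMUSG00000022769, chr16:17130138-17132383) at 16.1, 14.4, 13.3 and 12.4 TPM. The values are per gene, so spliced and unspliced Xbp1 are summed. Exons of Manf overlap those of Dcaf1 on the opposite strand over 146 bases, and exons of Ddit3 those of Mars over 68 bases; whether strand entered the quantification is not stated in the labels.

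**Figure D1:**
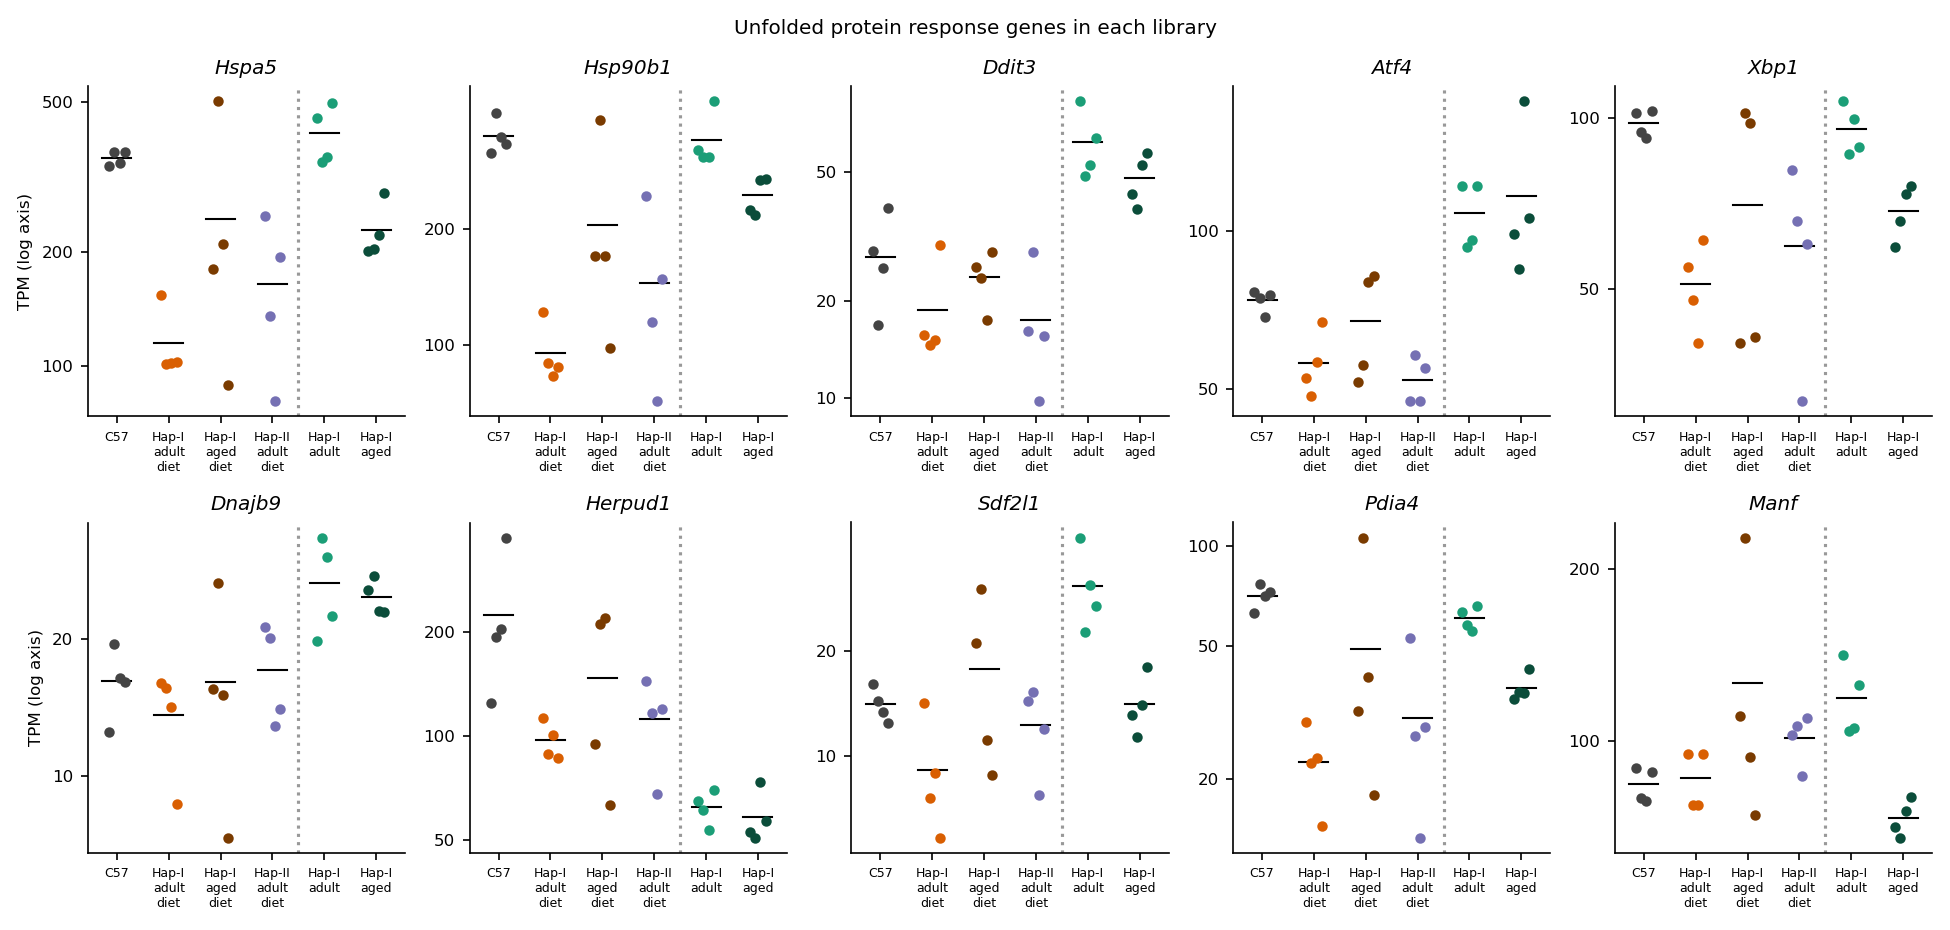
TPM of the 10 genes (log axis, a scale for each panel) in each library (point), with the mean of each group of 4 (bar); groups right of the dotted line are the neuronal libraries. Hspa5, Hsp90b1 and Pdia4 sit lower in both adult diet groups than in every C57 library, while Manf does not.

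Adult Hap-I mice on western diet were compared with C57 mice. In this contrast the haplotype transgene, the diet and the letter of the library titles (A against S) all differ and cannot be told apart. The Y-linked signal differs as well in most of the libraries. The large chaperones and the disulfide isomerase fell. Hspa5 was at 154, 101, 102 and 103 TPM in Hap-I libraries 1 to 4, each below all C57 values, and fell by 1.64 ± 0.40 (SE) on the log2 scale (limma, adjusted p = 0.00386, n = 4 and 4). Hsp90b1 was at 122, 90.3, 83.3 and 88.00 TPM and fell by 1.86 ± 0.36 (adjusted p = 0.00145 by limma). Pdia4 was at 29.8, 22.4, 23.1 and 14.5 TPM and fell by 1.66 ± 0.43 (adjusted p = 0.00518 by limma). In all 3 genes the highest Hap-I library, library 1, was below the lowest C57 library. That library had 0.868 TPM of the Y-linked genes, within the C57 range, and the other 3 had 13.2 to 38.2 TPM.

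The degradation factor and the IRE1 arm's transcription factor fell by less. Herpud1 was at 113, 88.9, 101 and 86.7 TPM, with a log2 difference of -1.10 ± 0.38 (adjusted p = 0.0214 by limma). Xbp1 was at 54.8, 47.9, 40.3 and 61.1 TPM, with a log2 difference of -0.94 ± 0.32 (adjusted p = 0.0187 by limma). Neither overlapped with C57, though both calls were lost without single libraries: Herpud1 without Hap-I library 4 or C57 library 4, and Xbp1 without Hap-I library 3. So 5 of the 10 members passed the threshold as lower, against a background of 59.7% of all 12923 genes tested, and 6 of the 10 did not overlap with C57, against 55.3%. The members' median difference was -0.79, beside -0.80 over all genes.

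The other 5 did not pass. Atf4 was at 52.4, 48.6, 56.4 and 67.2 TPM, each library below C57, at -0.40 ± 0.18 (adjusted p = 0.0695 by limma). Ddit3 was at 15.7, 14.6, 15.1 and 29.7 TPM and overlapped C57, at -0.53 ± 0.31 (adjusted p = 0.15 by limma). For the BiP partners the values were 14.2, 7.54, 8.9 and 5.81 TPM in Sdf2l1 and 15.97, 15.6, 14.2 and 8.7 TPM in Dnajb9, at -0.63 ± 0.34 and -0.25 ± 0.31 (adjusted p = 0.107 and 0.485 by limma). Manf had the values nearest to C57, 94.8, 77.2, 77.3 and 94.9 TPM, at 0.03 ± 0.26 (adjusted p = 0.924 by limma).

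Adult Hap-II mice on the diet were set against the same 4 C57 libraries, so the 2 comparisons share their controls. Transgene, diet and title letter (C against S) differ here too and cannot be told apart. Y-linked genes summed to 34.7 and 40.2 TPM in Hap-II libraries 3 and 4, above all C57 libraries. The SD over the 4 libraries was larger than in Hap-I for 7 of the members and smaller for Atf4, Sdf2l1 and Manf. Hsp90b1 was at 244, 115, 71.8 and 149 TPM and fell by 1.39 ± 0.36 (adjusted p = 0.0108 by limma). Pdia4 was at 53.02, 26.97, 13.3 and 28.7 TPM and fell by 1.34 ± 0.43 (adjusted p = 0.0257 by limma). Hspa5 was at 249, 136, 80.9 and 195 TPM and fell by 1.21 ± 0.40 (adjusted p = 0.0279 by limma). In all 3 chaperone genes library 3 was the lowest and library 1 the highest of the group. Atf4 was at 47.4, 57.98, 47.5 and 54.96 TPM, each library below every C57 library, and fell by 0.50 ± 0.18 (adjusted p = 0.0412 by limma). These 4 of 10 compare with 36.9% of all genes called lower, and 5 of 10 did not overlap with C57, against 26.7%; Xbp1 was the fifth.

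Of the members that did not pass in Hap-II, Xbp1 was at 80.95, 65.9, 31.8 and 59.97 TPM (-0.78 ± 0.32, adjusted p = 0.0602 by limma) and Herpud1 at 144, 117, 67.8 and 120.1 TPM (-0.93 ± 0.38, adjusted p = 0.0599 by limma). Ddit3 was at 16.2, 28.3, 9.8 and 15.6 TPM, at -0.65 ± 0.31 on the log2 scale. The remaining 3 lay close to C57: Sdf2l1 at 14.3, 15.2, 7.72 and 11.9 TPM, Dnajb9 at 21.2, 20.01, 12.9 and 14.04 TPM and Manf at 102, 106, 87.1 and 110.0 TPM, with log2 differences from -0.21 to 0.27. The members' median was -0.72 and that of all genes -0.59. Only Hsp90b1 was called in each fit without 1 library; without C57 library 2, 3 or 4 or Hap-II library 3 it was the sole call. With the Y-linked signal as a covariate, Hsp90b1 was also the only member called in either comparison, lower as 24.4% of all genes in Hap-I and 13.5% in Hap-II.

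Since the median of all genes was shifted by -0.80 and -0.59, both comparisons were repeated after median-of-ratios scaling, which brought those medians to -0.02 and -0.01. The split then changed. In Hap-I, Hsp90b1 stayed lower at -0.85 ± 0.25 (adjusted p = 0.0198 by limma), while Manf was higher at 1.02 ± 0.26 (adjusted p = 0.0102) and Dnajb9 was higher at 0.69 ± 0.19 (adjusted p = 0.0153). Hspa5 at -0.63 ± 0.30 and Pdia4 at -0.68 ± 0.28 no longer passed. These 2 higher and 1 lower of 10 stand beside 17.2% and 14.5% of all genes. In Hap-II, Manf at 0.98 ± 0.26 and Dnajb9 at 0.74 ± 0.19 were the only calls, with 12.5% of all genes higher and 10.1% lower. In both, Atf4, Ddit3 and Sdf2l1 changed sign with the scaling.

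Quantile normalization also brought the medians of all genes to -0.01 in both comparisons, and more of the chaperone calls were kept. In Hap-I, Hsp90b1 at -1.43 ± 0.29, Hspa5 at -1.25 ± 0.34 and Pdia4 at -0.93 ± 0.31 were lower (limma adjusted p = 0.00373, 0.0148 and 0.0334), and Dnajb9 at 0.65 ± 0.20 and Manf at 0.64 ± 0.22 were higher (limma adjusted p = 0.023 and 0.0364). Of all genes, 14.6% were then lower and 15.6% higher. In Hap-II, Hsp90b1 at -1.17 ± 0.29 and Hspa5 at -1.02 ± 0.34 were lower (limma adjusted p = 0.0134 and 0.0436), Pdia4 at -0.85 ± 0.31 did not pass (adjusted p = 0.0575 by limma), and Dnajb9 and Manf were higher at 0.71 and 0.67, beside 10.9% of all genes lower and 11.7% higher. Hsp90b1 was thus called lower in Hap-I under each of the 3 scalings, and in Hap-II under each but median-of-ratios.

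**Figure D2:**
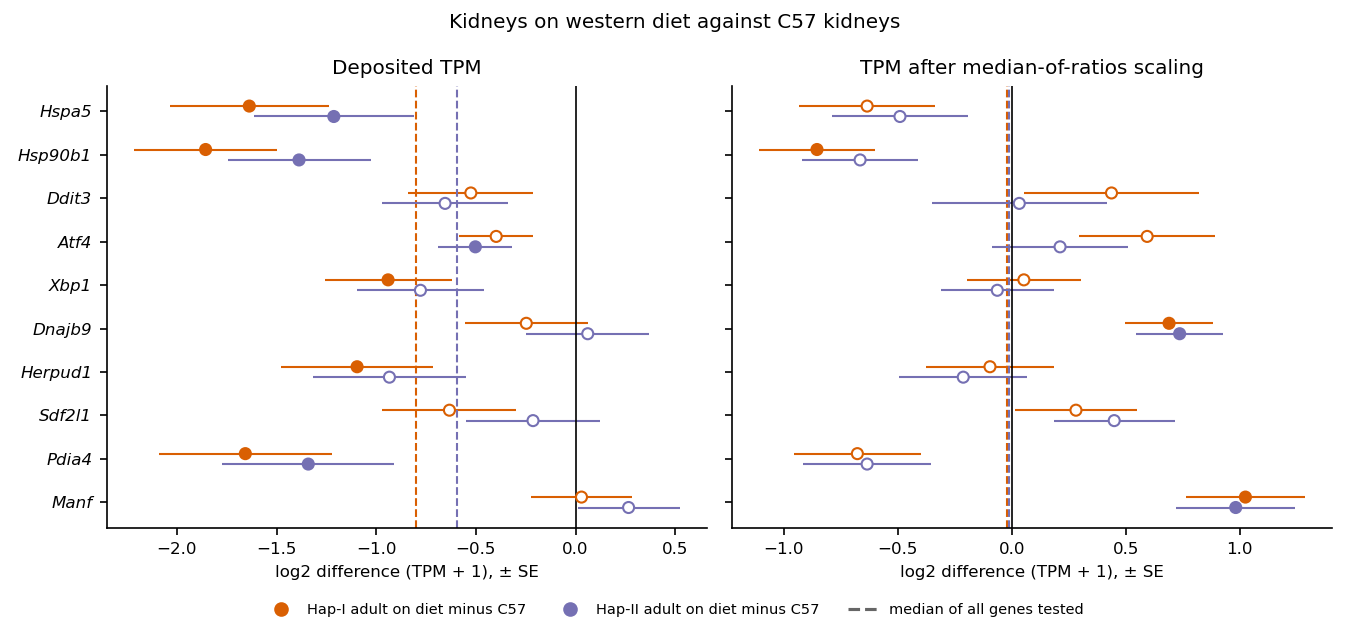
Log2 difference (± SE, n = 4 and 4) of adult Hap-I and adult Hap-II kidneys on western diet from C57 kidneys, in deposited TPM (left) and after median-of-ratios scaling (right). Filled points passed an adjusted p of 0.05 and dashed lines are the medians of all genes; Hsp90b1, Pdia4 and Hspa5 are the lowest 3 in both panels and Manf the highest.

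A ratio of 2 genes within a library is not changed by a factor applied to the whole library, as in median-of-ratios scaling. Quantile normalization can change it, and the ratios here are of deposited TPM. This measure was chosen after the data were seen, and each member was set over Hspa5. Hsp90b1 over Hspa5 was 0.899 to 1.08 in C57, 0.792 to 0.89 in adult Hap-I and 0.764 to 0.977 in adult Hap-II mice on the diet. Pdia4 over Hspa5 was 0.187 to 0.209 in C57, 0.141 to 0.225 in Hap-I and 0.148 to 0.212 in Hap-II. The Hap-I values of Hsp90b1 over Hspa5 lay just below those of C57, and those of Pdia4 over Hspa5 overlapped with C57. Manf over Hspa5 was 0.216 to 0.266 in C57, 0.616 to 0.924 in Hap-I and 0.411 to 1.08 in Hap-II, without overlap. Dnajb9 over Hspa5 was 0.0371 to 0.0528 in C57, 0.0846 to 0.154 in Hap-I and 0.0722 to 0.159 in Hap-II. Counting members other than Hspa5 whose ratio was higher than in C57 without overlap gave 5 in Hap-I (Atf4, Dnajb9, Manf, Sdf2l1 and Xbp1). In Hap-II it gave 4 (the same without Atf4), where 41.3% and 27.5% of all genes had such a ratio to Hspa5. Hspa5 itself was lower than in C57, so a gene that fell less has a higher ratio. These counts thus restate the differences above and add no separate support.

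**Figure D3:**
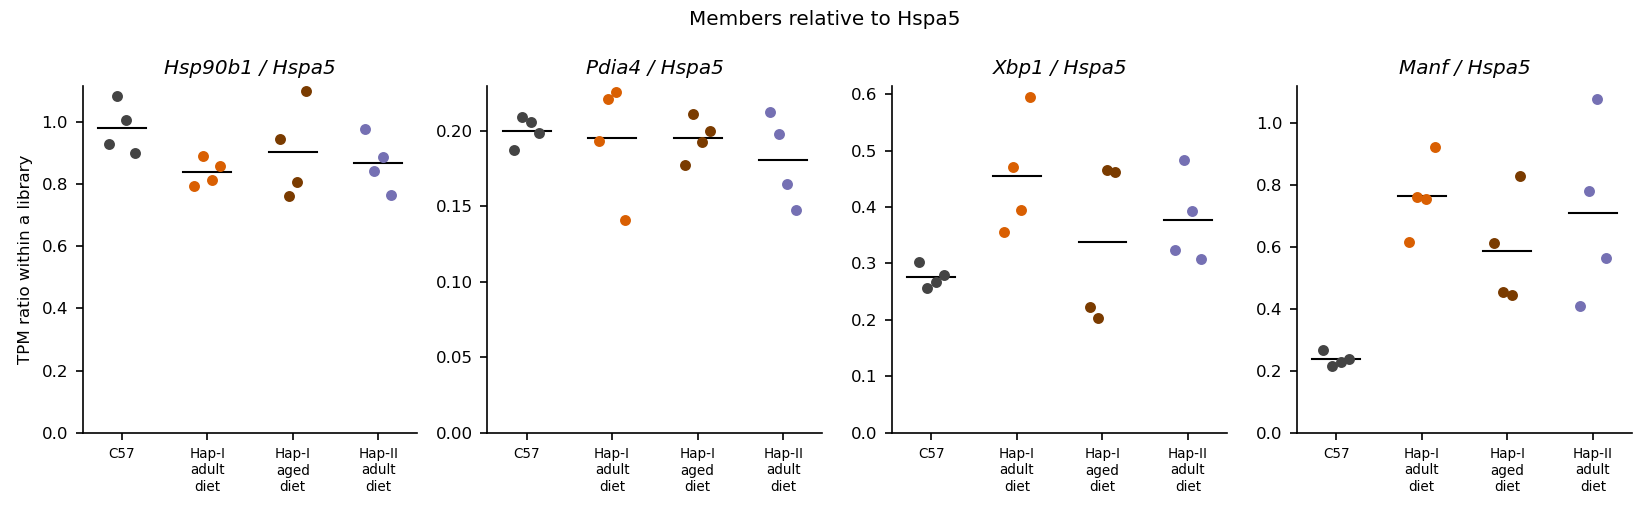
TPM of Hsp90b1, Pdia4, Xbp1 and Manf divided by that of Hspa5 in the same library (points; bars are means of 4), in the 4 kidney groups; axes start at 0. Manf over Hspa5 lies below 0.27 in every C57 library and above 0.4 in every library on the diet.

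Several members also differed between the libraries on the diet in step with the proximal tubule markers. The share of all genes that did so was not determined, so the relation is not shown to be particular to these members. Over the 12 libraries on the diet, the summed proximal tubule markers and each member were correlated on the log2 scale. This too was chosen after the data were seen, and the 10 relations share library composition. P-values are from 100000 permutations over all 12 libraries without regard to group, adjusted over the 10. They therefore do not test the relation within groups. Pearson's r was 0.929 for Herpud1 (p = 4e-05, adjusted p = 0.000133 by permutation; Spearman's rho = 0.93, p = 6e-05), 0.921 for Pdia4 (p = 1e-05, the smallest that these permutations can give, adjusted p = 0.0001; rho = 0.923, p = 0.0001) and 0.888 for Hspa5 (p = 4e-05, adjusted p = 0.000133; rho = 0.874, p = 0.0005). Without the 2 libraries farthest from the median of the marker sum, r was 0.95, 0.896 and 0.82. After subtraction of group means it was 0.927, 0.921 and 0.875, for which no p-value was computed. For Hsp90b1 and Xbp1 r was 0.874 each (permutation p = 0.00011 and 0.00025, adjusted p = 0.000275 and 0.0005; rho = 0.804 and 0.762), and 0.737 and 0.806 without those 2 libraries. The BiP partners and Manf followed less closely: r was 0.747 in Dnajb9, 0.681 in Sdf2l1 and 0.622 in Manf (adjusted permutation p = 0.00818, 0.0211 and 0.0211), falling to 0.54, 0.502 and 0.374 without the 2 libraries. Spearman's rho was 0.797, 0.748 and 0.51 (adjusted permutation p = 0.00602, 0.0101 and 0.118), so that Manf did not pass by rank. The PERK arm's Atf4 and Ddit3 did not follow them detectably, with r of -0.003 and 0.044 (adjusted permutation p = 0.992 each; rho = -0.035 and 0.049). 

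Markers of the tubule segments were lower on the diet than in C57. Over all genes the median difference was -0.80 in Hap-I and -0.59 in Hap-II, with 59.7% and 36.9% called lower. In Hap-I the median log2 difference was -1.60 over 8 proximal tubule markers (7 called lower), -2.44 over 6 thick limb and distal tubule markers (5 called lower) and -2.15 over 7 collecting duct markers (7 called lower). In Hap-II these medians were -1.30, -1.61 and -1.51, with 5, 2 and 4 called lower. The 5 podocyte markers lay near all genes, with medians of -0.84 in Hap-I and -0.62 in Hap-II and 3 called lower in each. The thick limb and distal tubule markers summed to between 84.6 and 848 TPM in Hap-I, to between 416 and 2081 TPM in Hap-II and to between 1893 and 3732 TPM in C57. The 6 endothelial markers were all called lower in both, with medians of -1.15 and -0.97. The part of cell content in the members' differences from C57 was not tested.

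**Figure D4:**
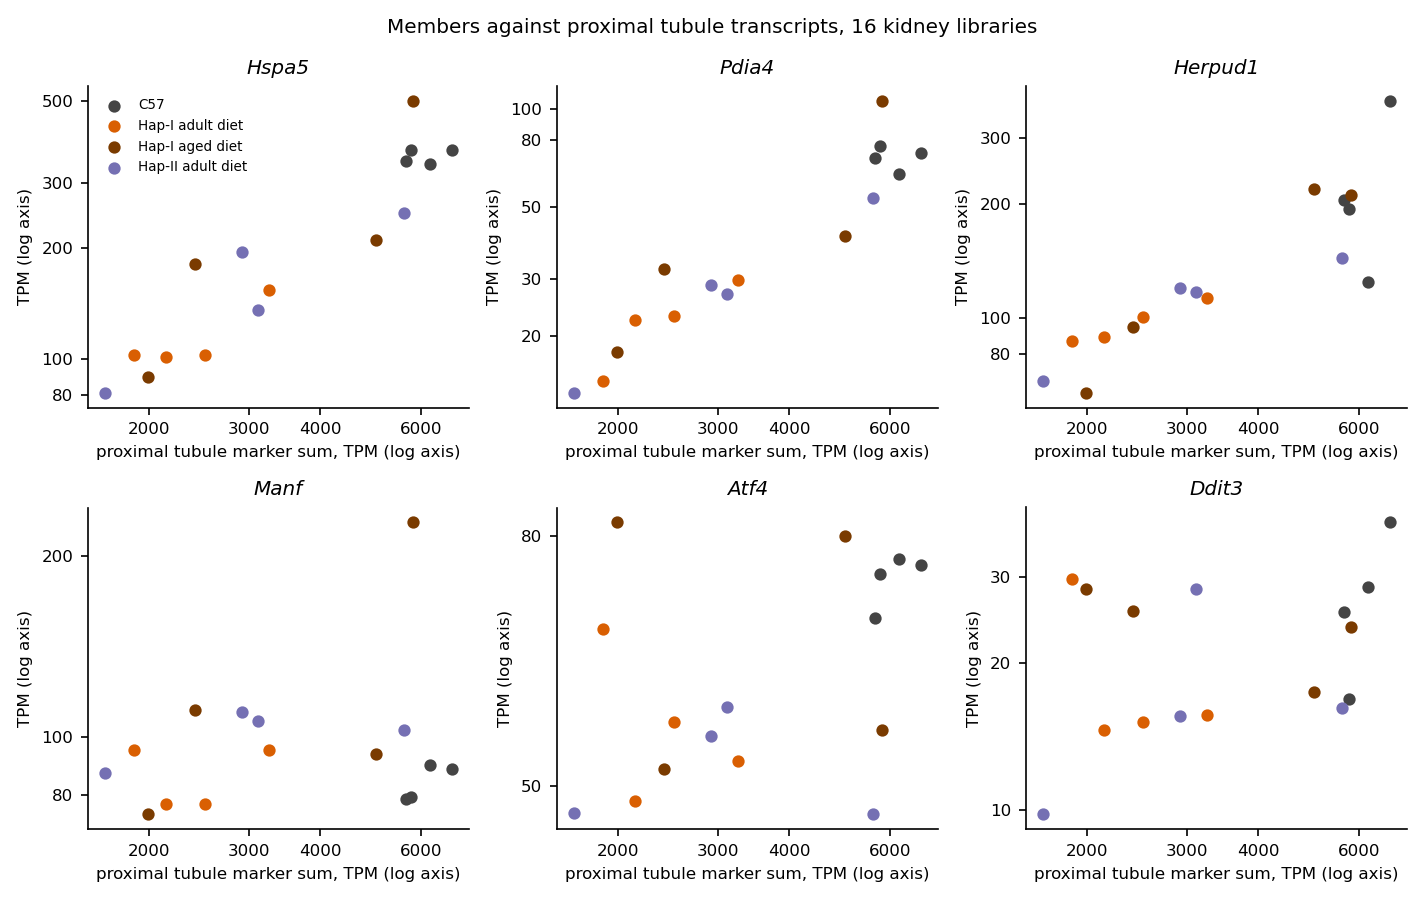
TPM of 6 members against the summed TPM of 8 proximal tubule markers (both log axes) in the 16 kidney libraries. Hspa5, Pdia4 and Herpud1 rise with the marker sum within the diet groups, whereas Atf4 and Ddit3 are scattered.

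In the rest of the pathway most measured genes had a negative difference from C57. Of all genes, 59.7% were called lower in Hap-I and 36.9% in Hap-II, the shares beside which each list's counts of calls stand. After median-of-ratios scaling those shares were 14.5% lower and 17.2% higher in Hap-I, and 10.1% lower and 12.5% higher in Hap-II. Of the sensors and their activators, 8 of 9 tested were called lower in Hap-I and 5 of 9 in Hap-II, with median differences of -1.47 and -0.97. Eif2ak3, the gene of PERK, was at 3.76 ± 1.27 TPM (SD, n = 4) in Hap-I against 14.7 ± 3.79 TPM in C57 (log2 difference -1.73, adjusted p = 0.00214 by limma). After median-of-ratios scaling 5 and 0 of the 9 were called, all lower. Of the other ER chaperones and folding enzymes, 18 of 20 were called lower in Hap-I and 9 of 20 in Hap-II. Calreticulin's gene Calr, the partner of glycoprotein folding, was at 224 ± 47.8 TPM in Hap-I against 709 ± 72.4 TPM in C57 (-1.68, adjusted p = 0.00422), and Hyou1, an ER nucleotide exchange chaperone, fell by 1.96 (adjusted p = 0.00206 by limma). Under median-of-ratios scaling this list had 3 lower and 1 higher in Hap-I and 2 lower in Hap-II.

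Of the ER-associated degradation genes, 12 of 16 were called lower in Hap-I and 7 of 16 in Hap-II, which became 2 lower and 2 higher in Hap-I and 3 lower and 2 higher in Hap-II with median-of-ratios scaling. Vcp, the segregase that extracts substrates, fell from 177 ± 30.7 TPM in C57 to 42.2 ± 1.75 TPM in Hap-I (-2.03, adjusted p = 0.000952 by limma). Of the translocation genes, 10 and 7 of 17 were called lower, near the shares of all genes (59.7% and 36.9%), Sec61a1 of the translocation channel among them at -1.52 in Hap-I and -1.33 in Hap-II, yet with median-of-ratios scaling 6 of the 17 were higher and 2 lower in each comparison. Of the targets of PERK, ATF4 and CHOP, 18 and 11 of 22 were called lower (medians -1.19 and -0.87). Asns, the asparagine synthetase that ATF4 induces, fell from 10.3 ± 2.82 TPM in C57 to 1.28 ± 0.48 TPM in Hap-I (-2.30, adjusted p = 0.000613 by limma), and Nupr1, a stress-induced regulator, fell by 2.25. After scaling 6 lower and 2 higher remained in Hap-I and 5 lower in Hap-II.

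Chaperone systems outside the ER were set beside these. Of 12 cytosolic heat shock genes, 9 were called lower in Hap-I and 8 in Hap-II, beside 59.7% and 36.9% of all genes, led in both by Hsph1, an HSP110 co-chaperone, at 7.28 ± 2.11 and 7.76 ± 3.63 TPM against 39.7 ± 13.2 TPM in C57 (-2.28 in each, adjusted p = 0.000771 and 0.00106 by limma). After scaling these were 4 lower and 2 higher in Hap-I and 5 lower and 2 higher in Hap-II. Of 10 genes of the mitochondrial unfolded protein response, 6 and 5 were lower, the first at the share of all genes, and 1, the mitochondrial co-chaperonin Hspe1, was higher in both: 568 ± 107 and 588 ± 190.4 TPM against 329 ± 11.9 TPM (0.77 and 0.78, adjusted p = 0.00661 and 0.013 by limma). After scaling the mitochondrial list had 2 lower and 2 higher in Hap-I and 2 lower and 3 higher in Hap-II.

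Age on the diet was asked of aged against adult Hap-I mice. All 10 members had a positive difference and none passed the adjusted threshold (limma adjusted p from 0.245 to 0.796), while 4 of 12923 genes did (0.031%); 2 members had an unadjusted p under 0.05, near the 14.9% of all genes that had one in that direction. In aged mice Hspa5 was at 181, 502, 210.4 and 89.4 TPM, of which library 2 stood high and library 4 below all adult values, at 0.84 ± 0.40 (adjusted p = 0.311 by limma). Hsp90b1 was at 171, 382, 169.7 and 98.2 TPM, at 0.93 ± 0.36, the largest of the 10 (adjusted p = 0.245 by limma). The values of Pdia4, 32.02, 106, 40.6 and 17.9 TPM, also had library 2 highest and library 4 lowest, at 0.84 ± 0.43. Sdf2l1 was at 21.1, 30.1, 11.1 and 8.82 TPM (0.80 ± 0.34, adjusted p = 0.27 by limma).

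Library 2 of the aged group was thus the highest of its group in 7 of the 10 members. Manf was at 111, 227, 93.7 and 74.2 TPM and Dnajb9 at 15.5, 26.4, 15.04 and 7.33 TPM. Xbp1 at 40.2, 102, 98.1 and 41.3 TPM and Herpud1 at 94.8, 211, 219.9 and 63.1 TPM had libraries 2 and 3 high together. The PERK arm was ordered otherwise, with library 4 highest: Ddit3 at 25.5, 23.6, 17.4 and 28.4 TPM and Atf4 at 51.6, 55.6, 80.04 and 82.1 TPM. Without aged library 2 the difference was 0.58 in Hsp90b1, 0.51 in Sdf2l1, 0.41 in Hspa5, 0.38 in Pdia4, 0.18 in Herpud1, 0.11 in Xbp1, 0.10 in Manf and -0.13 in Dnajb9. Only Atf4 and Ddit3 moved by less than 1.5 times. That library and library 3 also had the highest proximal tubule sums of the group, up to 5828 TPM, and all 4 aged libraries had 702 to 1592 TPM of plasma cell and B cell markers against 67.2 to 259.7 TPM in the adults. No marker gene was called for age, but the 7 macrophage markers (median log2 difference 1.28) and the 6 endothelial markers (0.90) all had a positive difference with an unadjusted p under 0.05, as had 3 of 5 podocyte markers (0.74). The macrophage markers summed to between 81.4 and 207 TPM in aged and 30.4 and 107 TPM in adult libraries. The part of any of these in the members' differences was not tested. No member separated the groups without overlap, where 6.18% of all genes did so as higher, and the members' median was 0.42 beside 0.32 over all genes. With library weights 4 members (Atf4, Hsp90b1, Hspa5 and Xbp1) were called higher, beside 15.8% of all genes, and after median-of-ratios scaling 4 of the 10 differences were negative.

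In the pathway lists no gene was called for age on the diet. The ER-associated degradation genes Sel1l and Syvn1, the pair that forms the HRD1 ubiquitin ligase, had the smallest p-values of their list, with Sel1l at 16.3 ± 3.09 TPM in the aged group against 7.34 ± 1.06 TPM (1.05, adjusted p = 0.139 by limma). Creld2, a secreted ER stress protein, was at 30.3 ± 14.4 against 15.04 ± 3.47 TPM (0.89, adjusted p = 0.177 by limma).

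The haplotypes were compared between adult Hap-I and adult Hap-II mice on the diet. No member passed (limma adjusted p from 0.817 to 0.89), none separated the groups without overlap where 2.53% of all genes did, and 0.0774% of all genes were called. Differences, Hap-I minus Hap-II, ran from -0.47 ± 0.36 in Hsp90b1 to 0.13 ± 0.31 in Ddit3, with 8 of 10 negative and a median of -0.27 beside -0.22 over all genes. The 4 Hap-II libraries spread from 80.9 to 249 TPM in Hspa5, over the whole Hap-I range of 101 to 154 TPM. This comparison and that of age share the adult Hap-I libraries on the diet.

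In the neuronal libraries, which allow the question of age without a named diet in tissue other than the label gives, the chaperone genes had lower values in aged Hap-I mice, none of them past the adjusted threshold. Hspa5 was at 454, 346, 357 and 496 TPM in adult and 201, 204, 222 and 286 TPM in aged libraries, at -0.85 ± 0.16 (adjusted p = 0.139 by limma). Sdf2l1 was at 42.4, 22.7, 30.9 and 27.01 against 13.1, 11.3, 14.00 and 17.99 TPM, the largest difference at -1.06 ± 0.19 (adjusted p = 0.139 by limma). Neither gene's groups overlapped. Manf was at 142, 104, 106 and 125 against 70.7, 67.8, 75.6 and 79.8 TPM, at -0.68 ± 0.12 (adjusted p = 0.139 by limma). Pdia4 was at 63.4, 57.8, 55.5 and 65.8 against 34.8, 36.6, 36.1 and 42.9 TPM, at -0.68 ± 0.11 (adjusted p = 0.139 by limma). In both, every adult library was above every aged one. Hsp90b1 was at 319.6, 306, 307 and 428 against 223, 217, 268 and 269 TPM (-0.47 ± 0.14), and Xbp1 at 107, 86.4, 99.5 and 88.97 against 59.4, 66.00, 73.6 and 75.96 TPM (-0.47 ± 0.12), again without overlap.

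No overlap was thus found in 6 of the 10 members, all lower, where 0.615% of 13497 genes were lower without overlap. Over these 8 libraries, group difference included, Hspa5 correlated with the rest of the 6 at r from 0.887 (Xbp1) to 0.981 (Pdia4). They are therefore not 6 separate observations. The same 6 had an unadjusted p under 0.05, as 1.23% of all genes did in that direction. None passed after adjustment over all genes (lowest adjusted p = 0.139 by limma), and 4 genes in all did (0.0296%); for each of the 6 the exact permutation test gave p = 0.0286, the smallest that 4 against 4 allows. Hspa5, Manf and Pdia4 passed when mitochondrially encoded genes were removed and after quantile normalization, and Pdia4 alone after median-of-ratios scaling or with library weights; under these 4 settings no other gene was called lower. The members' median was -0.47 beside 0.12 over all genes, and all 10 lay below the latter.

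The PERK arm and the degradation factor were not among the 6. Ddit3 was at 82.9, 48.6, 52.5 and 63.6 against 42.8, 38.5, 52.6 and 57.4 TPM (-0.35 ± 0.18), and Atf4 at 122, 93.4, 96.4 and 122 against 98.99, 84.7, 177 and 106 TPM (0.06 ± 0.21), with aged library 3 high. Herpud1 was at 64.8, 61.1, 53.3 and 69.8 against 52.9, 50.8, 73.4 and 56.8 TPM (-0.10 ± 0.14) and Dnajb9 at 19.7, 33.3, 30.2 and 22.4 against 25.6, 27.4, 23.00 and 22.9 TPM (-0.07 ± 0.16), all with overlap. Of the 20 other ER chaperones and folding enzymes, 4 were lower without overlap, beside 0.615% of all genes, and none was called. Their median was -0.15, with 8 of the 20 positive. Calr had 436 ± 40.8 TPM in the aged group against 646 ± 100.4 TPM in the adults (-0.56, adjusted p = 0.185 by limma) and Creld2 17.4 ± 3.11 against 29.9 ± 5.62 TPM (-0.75, adjusted p = 0.154 by limma). Other parts of the pathway were not lower as lists. The median was 0.25 over the sensors and their activators (8 of 9 positive) and 0.12 over ER-associated degradation genes (11 of 16 positive). It was 0.09 over translocation genes (11 of 17) and 0.01 over targets of PERK, ATF4 and CHOP (13 of 23), beside 0.12 over all genes. Beside this, the 10 neuron markers summed to 7664 ± 226 TPM in aged and 6744 ± 326 TPM in adult libraries, the 6 oligodendrocyte markers to 4910 ± 583 against 3330 ± 451 TPM with 4 of the 6 higher without overlap, and choroid plexus markers reached 5570 TPM in adult library 2 and 947 TPM in aged library 4. The part of cell content in the lower chaperone values was not tested.

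**Figure D5:**
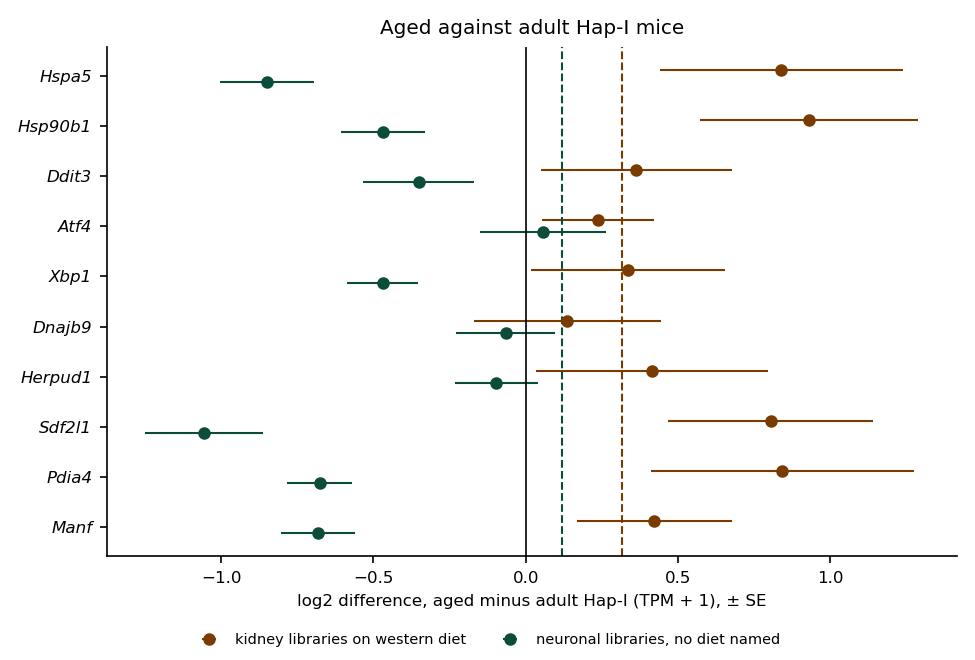
Log2 difference (± SE) of aged from adult Hap-I mice for each member, in the kidney libraries on western diet and in the neuronal libraries (n = 4 and 4 in each); dashed lines are the medians of all genes. All 10 kidney values are positive and 9 of the 10 neuronal values negative.

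The difference between the 2 age effects, on the diet minus without, was positive in all 10 members and none passed (limma adjusted p from 0.12 to 0.895; 0.0263% of all genes did). It was largest in Sdf2l1 at 1.86 ± 0.43 (adjusted p = 0.12) and Hspa5 at 1.69 ± 0.50 (adjusted p = 0.216 by limma), and 5 of 10 had an unadjusted p under 0.05, against 6.8% of all genes in that direction. Diet and tissue change together in this contrast and cannot be told apart.

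The genes most like 3 members over the 16 kidney libraries were found among 7657 protein-coding genes by Pearson's r of log2 values, as a description, since the libraries share composition and scaling. Nearest to Hspa5 were Hsp90b1 (0.982), Pdia4 (0.979), the LDL receptor chaperone gene Lrpap1 (0.977), Calr (0.977) and Pdia3 (0.974), and the same 5 were nearest after subtraction of group means (0.95 to 0.973). All 5 code for proteins of the ER. Nearest to Xbp1 were the malate dehydrogenase gene Mdh2 (0.959), Samm50, Eif4a1, Nob1 and Aamp (0.948), of which 4 remained after group means were subtracted. For Ddit3 the values were lower, from 0.84 for Dhx16 and 0.825 for Hspa1b, an inducible HSP70, to 0.798 for Paxx. Among the members, Hspa5 had r of 0.874 with Xbp1 and 0.844 with Herpud1, but 0.3 with Atf4 and 0.357 with Ddit3.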

How the data were processed

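The deposited values are transcripts per 1000000 (TPM) per gene, 1 table of 24 libraries; per the submitters' processing notes kallisto, DESeq2 and GRCm38 were named, without versions or roles, and per the labels' protocols RNA was extracted with a Qiagen kit and libraries were made with Illumina TruSeq stranded reagents after poly(A) selection. Of 30153 identifiers, 29732 matched GENCODE M21 (GRCm38). Libraries summed to between 904693 and 944019 TPM. Read depth is not recoverable from TPM, so no count test was run.

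Tests were made with limma 3.58.1 (R 4.3.3) on log2(TPM + 1), over genes with at least 1 TPM in at least 4 libraries of the fit: 16 kidney libraries in 1 fit, the 8 neuronal libraries in another and all 24 for the difference of age effects. P-values were two-sided and adjusted by Benjamini-Hochberg over all genes, with a threshold of 0.05. Fold changes on this scale understate changes of low genes. Simulated data had the same groups, noise drawn separately for each gene and changes only in genes with a mean of 5 TPM or more. There 31% of changes of size 1 (log2) and 87% of size 2 were called for age on the diet among 12644 genes. For age without the diet 83% and 98% were called among 13368. Shifts shared by many genes of a library, as seen here, were not simulated, so these shares need not hold for the real data.

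Correlations were permuted in numpy 2.4.6 with scipy 1.17.1. Motifs were searched by exact match in the RefSeq windows. All members were named; of each pathway list, called genes were eligible, up to 3 a direction and at 5 TPM or more on average where higher, or the 2 with the smallest p where none was called, and some of these are printed. The members, lists and alternatives were chosen with earlier results of these data known. Alternatives changed the pseudocount (0.1), the filter, the scaling, the libraries in the fit, library weights and a Y-linked covariate, and left out each library in turn.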

Additional observations from a re-analysis of the deposited data

Results flagged for a closer look

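Of 60 groups of 4 libraries, each a member in a group, 3 had a library whose gap to the next exceeded Dixon's 95% limit, where chance gives about 1 group in 20. The highest Hspa5 value of adult Hap-I kidneys on western diet, 154 TPM in library 1, stood apart from the other 3 at 101 to 103 TPM. The highest Ddit3 value of the same group, 29.7 TPM in library 4, stood apart from 14.6 to 15.7 TPM; library 4 also had the lowest Dnajb9, Sdf2l1 and Pdia4 of the group and the fewest genes detected (15975). The highest Hsp90b1 value of adult neuronal libraries, 428 TPM in library 4, stood apart from 306 to 319.6 TPM.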

How the results depend on the processing

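TPM without read depth gives no counting error, and 4 libraries a group limit each comparison. Over the members' 980 repeated tests, 844 kept direction and side of the threshold, 44 lost a call, 38 gained one and 54 changed sign; for those, where no cause is named, the cause was not tested. With median-of-ratios scaling, members called were 3 for Hap-I against C57 (5 as deposited), 2 for Hap-II (4 as deposited) and 1 for age without the diet (0 as deposited). Signs changed there for age on the diet in Ddit3 (-0.033), Atf4 (-0.17), Xbp1 (-0.075) and Dnajb9 (-0.25), for haplotype in Xbp1 (0.12), Herpud1 (0.12) and Manf (0.042), for Hap-I against C57 in Ddit3 (0.44), Atf4 (0.59), Xbp1 (0.054), Dnajb9 (0.69) and Sdf2l1 (0.28), for Hap-II in Ddit3 (0.033), Atf4 (0.21) and Sdf2l1 (0.45), for age without the diet in Atf4 (-0.078), and for the difference of age effects in Atf4 (-0.076) and Dnajb9 (-0.047). With quantile normalization 3 members were called for age without the diet, 5 for Hap-I against C57 (2 higher, 3 lower) and 4 for Hap-II (2 higher, 2 lower), and signs changed for age on the diet in Dnajb9 (-0.21), for haplotype in Xbp1 (0.044) and Herpud1 (0.020), for Hap-I in Ddit3 (0.29), Atf4 (0.25), Dnajb9 (0.65) and Sdf2l1 (0.32), for Hap-II in Sdf2l1 (0.47) and for age without the diet in Atf4 (-0.024). Without mitochondrially encoded genes 3 members were called for Hap-I against C57 (lower, as 41.7% of all genes) and 3 for age without the diet. With library weights 4 were called for age on the diet, 8 for Hap-I (all lower, as 77.1% of all genes), 8 for Hap-II (7 lower and 1 higher, as 69.2% and 5.9% of all genes) and 1 for age without the diet, and signs changed for age on the diet in Dnajb9 (-0.013), for haplotype in Ddit3 (-0.088) and Atf4 (-0.045), for Hap-I in Manf (-0.017), for Hap-II in Dnajb9 (-0.15) and for age without the diet in Atf4 (-0.0027). Without the 2 libraries with the fewest genes 7 members were called lower for Hap-I against C57 and 1 for Hap-II. Of 12872 genes tested, 6209 and 2054 were then called lower. Signs changed there for age on the diet in Dnajb9 (-0.048), for haplotype in Ddit3 (-0.33) and Atf4 (-0.024) and for Hap-I in Manf (-0.020). Fitting only the 2 groups compared gave 7 members lower for Hap-I and 6 for Hap-II, as 67.7% and 38.3% of all genes. With the Y-linked covariate 1 was called for Hap-I and 1 for Hap-II, and signs changed in Dnajb9 (0.10) and Sdf2l1 (0.20). By the unadjusted exact permutation test 6 passed for age without the diet.

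Leaving out 1 library at a time, members called for Hap-II against C57 ranged from 1 to 5, for Hap-I from 4 to 6, and stayed at 0 for age on the diet, haplotype and age without the diet. Ranges that crossed 0 were, for age on the diet, -0.13 (without aged library 2) to 0.44 in Dnajb9, for haplotype -0.10 to 0.38 in Ddit3 and -0.43 to 0.0076 in Xbp1, for Hap-I -0.020 to 0.079 in Manf, for Hap-II -0.049 to 0.18 in Dnajb9, and for age without the diet -0.16 to 0.19 in Atf4 and -0.19 to 0.052 in Dnajb9. Over all genes, 4 were called for age on the diet, but 411 higher and 32 lower with all 24 libraries in 1 fit and 2041 higher and 158 lower with library weights; for haplotype, 10 became 28 higher and 23 lower with weights.

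The titles of the 3 diet groups share the numbers 1 to 4. Deviations of same-numbered libraries from their group means correlated between -0.132 and 0.539, and those of differently numbered libraries between -0.509 and 0.563. Most of the former values were positive and most of the latter negative. Whether the numbers pair animals is not settled by this, and the main fits left them unpaired. With the number as a replicate block no member was called (0 for age, 0 for haplotype), as without it, and 2 and 5 genes were called in all.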
